A study of Homo sapiens with 5 samples.

Results

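501Mel human melanoma cells and Hermes 3A human melanocytes, each after shRNA silencing of BPTF, were compared gene by gene in 5 RNA-seq libraries. The comparison covered the 31029 genes, of 40263 listed in the count files of either line, that the files of both lines list. They were chosen by their Ensembl identifier alone. Whether the listing of a gene in a file depended on its reads was not tested. 501Mel is a melanoma line that expresses MITF and pigment genes, and Hermes 3A is an immortalised line of untransformed human melanocytes. The 2 libraries labelled 501_shBPTF came from 501Mel cells and the 3 labelled H3A_shBPTF from Hermes 3A cells. In both lines the cells were infected with lentivirus carrying an shRNA against BPTF and selected for 5 days with puromycin at 3 µg/ml. The methods name 2 such constructs, and the labels do not say which one each library carries. Libraries from shControl cells were not analysed here. Every difference below is therefore one between the lines under knockdown and gives no estimate of the knockdown's effect. A response to the knockdown that differs between the lines cannot be told apart from a difference present without it. The lines were also grown in different media. 501Mel cells received serum only, whereas Hermes 3A cells received serum with the phorbol ester TPA, cholera toxin, stem cell factor and endothelin-1, so that line and medium cannot be told apart. Nothing in the labels says that the replicates are separate cultures, and the p-values then measure only the spread between these samples, which may be technical.

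BPTF is the largest subunit of NURF, a chromatin-remodelling complex that uses an ISWI ATPase to slide nucleosomes and that acts with the melanocyte transcription factor MITF. MITF, with SOX10 and PAX3, switches on the enzymes and structural proteins of the melanosome, the organelle in which melanin is made. Melanocytes in culture divide slowly and depend on growth factors and cAMP-raising agents, whereas melanoma cells proliferate without them.

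Total counts were 30073071 to 43032311 per library, so that 3 counts, the upper limit that a count of 0 allows, correspond to between 0.0675 and 0.101 CPM (counts scaled to a library size of 1000000 after TMM adjustment). These limits cover counting error only. In a principal component analysis of all genes tested, the first component, with 86.4% of the variance, separated the lines. The second, with 6.83%, set Hermes 3A replicate 1 (score 64.2) apart from replicates 2 and 3 (−28.5 and −34.3), and counts are therefore also given without that library where it matters. Transcripts of the mitochondrial genome took 6.14% and 6.74% of the counts in 501Mel cells and 2.75% to 3.26% in Hermes 3A cells. The lineage of the libraries was checked on 10 defining melanocyte markers, all of which passed the filter on low counts and had reads in every library. Both lines are of this lineage, so that the check cannot verify which line a library came from by these markers. Of these, 2 were higher in 501Mel cells against 3 in Hermes 3A cells (1 without 501Mel replicate 1). The gene lists of the files differ, with 6230 genes listed for 501Mel cells only and 3004 for Hermes 3A cells only. A gene counted against another list of neighbours can receive another count, and the part of this in the differences below was not tested.

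Of the 31029 genes, 17975 passed the filter on low counts and were tested with edgeR's quasi-likelihood test. A gene was called at a Benjamini-Hochberg adjusted p under 0.05 with at least a 2-fold difference. The number called was 3089 (17.2%) higher in 501Mel cells and 3068 (17.1%) higher in Hermes 3A cells, or 34.3% in either direction. These shares are the background for the counts of every gene list below. At any size of difference, 48.2% passed the adjusted p, and for 69.6% of the genes tested the CPM of the lines did not overlap. Of the 6157 called genes only 7 overlapped, so that a lack of overlap adds little to a call. The median log2 difference (501Mel minus Hermes 3A, as for every log2 difference below) over all genes tested was 0.02, with quartiles at −0.76 and 0.81. Among called genes, 794 were at least 10-fold higher in 501Mel cells and 1064 at least 10-fold higher in Hermes 3A cells by the fitted values.

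**Figure D1:**
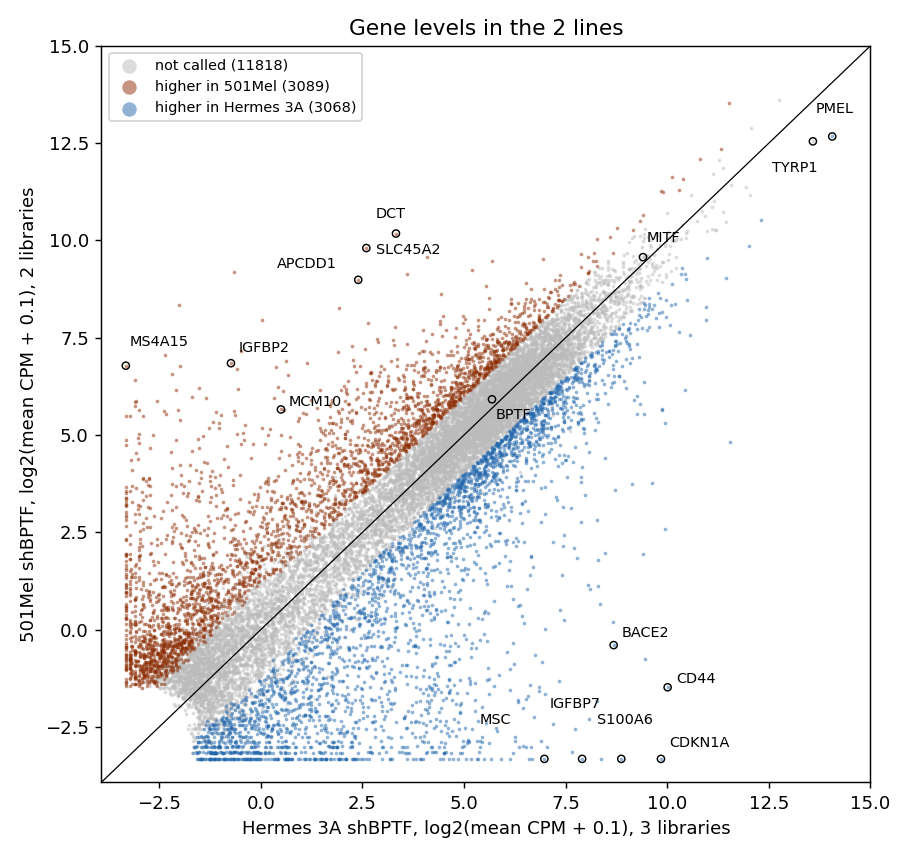
Mean level of each of the 17975 genes tested in Hermes 3A (horizontal axis, 3 libraries) and 501Mel shBPTF cells (vertical axis, 2 libraries), both as log2(CPM + 0.1), with called genes in colour and the line of equal levels in black. MITF and BPTF lie near the line, while CDKN1A, S100A6, IGFBP7 and MSC lie on the lower edge, where the 501Mel libraries have 0 counts.

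Genes of the dividing cell were higher in 501Mel cells, with few exceptions. Of 40 mitosis genes tested, 39 were called higher in 501Mel cells against 0 in Hermes 3A cells, against 17.2% of all genes, with a median log2 difference of 3.10. Of 39 DNA replication genes, 37 were higher in 501Mel cells against 0 in Hermes 3A cells, with a median of 2.38. Not called were PTTG1 (securin) among the mitosis genes, and PCNA and TYMS among the replication genes. The kinase gene CDK1, which drives entry into mitosis, was at 199 and 143 CPM in 501Mel cells and at 32.9, 4.91 and 12.1 CPM in Hermes 3A cells. Every 501Mel library thus lay above every Hermes 3A library, with a 10.2-fold difference (log2 3.36 ± 0.667 SE, adjusted p = 0.00564). TOP2A, which untangles chromosomes before they separate, was at 273 and 168 CPM against 14.8, 3.37 and 11.1 CPM, and differed 22.6-fold (adjusted p = 0.000828). The transcription factor gene MYBL2, a driver of the mitotic programme, was at 177 and 104 CPM against 6.65, 0.747 and 3.58 CPM (38.6-fold, adjusted p = 0.00127). In each of these genes replicate 1 was the highest of the Hermes 3A libraries. MCM10, which acts when the replicative helicase is activated, was called in the same direction, with 60.2 and 40.6 CPM against 2.45, 0.458 and 1.01 CPM (38.4-fold, adjusted p = 0.000587). All 6 subunits of the MCM2-7 helicase were higher in 501Mel cells, from 2.07 (MCM3) to 3.21 (MCM2) on the log2 scale. The summed level of the mitosis genes was 4798 and 3802 CPM in 501Mel cells and 918, 306 and 496 CPM in Hermes 3A cells, so that Hermes 3A replicate 1 stood above the other melanocyte libraries but below both melanoma libraries. Without this library 39 mitosis genes and 36 replication genes were called higher in 501Mel cells.

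Many promoters of mitotic genes carry a cell cycle genes homology region (CHR), through which the DREAM and MYBL2 complexes act. The letters TTTGAA, on either strand, stood in the 250 bases before the start of 17 of 33 mitosis genes with a sequence (51.5%), of 1 of 35 replication genes (2.86%) and of 13.6% of 27305 promoters in RefSeq (GRCh38.p14). Such a match is a description of the sequence and not a site. The upstream sequences of 3 called genes are given 5′ to 3′ on the gene's strand, with the matches in capitals, because each holds the motif. PLK1, the polo-like kinase, is at chr16:23678639-23678888 (plus strand), CDC20, which activates the anaphase-promoting complex, at chr1:43358731-43358980 (plus strand) and CCNB2, a B-type cyclin, at chr15:59104896-59105145 (plus strand).
PLK1: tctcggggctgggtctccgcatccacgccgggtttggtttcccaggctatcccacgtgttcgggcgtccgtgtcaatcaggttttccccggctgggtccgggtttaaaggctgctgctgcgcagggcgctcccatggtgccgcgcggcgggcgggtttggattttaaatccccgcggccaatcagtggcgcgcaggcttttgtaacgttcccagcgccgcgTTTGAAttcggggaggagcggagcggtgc
CDC20: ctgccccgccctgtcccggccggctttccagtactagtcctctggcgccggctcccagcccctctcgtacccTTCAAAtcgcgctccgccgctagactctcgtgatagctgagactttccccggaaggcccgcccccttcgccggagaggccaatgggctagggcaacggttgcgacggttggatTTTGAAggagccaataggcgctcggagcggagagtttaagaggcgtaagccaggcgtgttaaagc
CCNB2: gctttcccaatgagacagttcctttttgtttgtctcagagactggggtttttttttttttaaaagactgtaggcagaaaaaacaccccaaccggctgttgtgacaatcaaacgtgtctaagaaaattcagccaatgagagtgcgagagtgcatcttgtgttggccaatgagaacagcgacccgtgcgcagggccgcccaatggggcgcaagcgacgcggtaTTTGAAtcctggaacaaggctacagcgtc
In PLK1 and CCNB2 the match ended 24 bases before the start, and in CDC20 the matches ended 173 and 60 bases before it. PLK1 was at 133 and 141 CPM in 501Mel cells against 28.3, 5.40 and 10.7 CPM in Hermes 3A cells. CDC20 was at 118 and 105 CPM against 24.2, 2.99 and 8.77 CPM. CCNB2 was at 78.7 and 67.1 CPM against 15.1, 5.11 and 9.21 CPM. The groups did not overlap in any of these genes, which differed 9.28-fold, 9.29-fold and 7.44-fold.

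Targets of the tumour suppressor p53 differed in the other direction. Of 30 p53 target genes, 24 were higher in Hermes 3A cells (17.1% of all genes) and 1 in 501Mel cells, with a median log2 difference of −1.85. CDKN1A (ENSG00000124762, chromosome 6), which encodes the CDK inhibitor p21, had 0 and 0 counts in 501Mel cells and 33363, 31620 and 34023 counts in Hermes 3A cells. Its level in Hermes 3A cells was 921 CPM ± 202 (SD, n = 3). In counted reads this was at least 12638-fold higher when the 501Mel libraries are set to 3 counts each. For CDKN1A, absent transcripts and uncounted reads in 501Mel cells cannot be told apart, as described below for genes near 0. The death receptor gene FAS was at 0.360 and 0.339 CPM against 52.5, 56.7 and 65.6 CPM (165-fold, adjusted p = 8.17e-06). TP53INP1, a stress-induced p53 cofactor, was at 3.53 and 3.39 CPM against 149, 217 and 288 CPM (63.0-fold). Smaller differences in the same direction were seen for MDM2, the ubiquitin ligase that degrades p53 (6.68-fold), for the repair gene DDB2 (log2 difference −3.70) and for the pro-apoptotic BAX (2.45-fold). The exception was GDF15, a secreted stress factor, at 40.7 and 54.3 CPM in 501Mel cells against 3.25, 4.14 and 15.5 CPM. Leaving out Hermes 3A replicate 1 left 23 of the 30 targets higher in Hermes 3A cells.

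Of 8 CDK inhibitor genes, 2 (CDKN2C and CDKN3) were higher in 501Mel cells and 2 (CDKN1A and CDKN1C) in Hermes 3A cells, with a median log2 difference of −0.33. CDKN3 was not called without 501Mel replicate 1. CDKN2A, the locus of p16, was at 76.0 and 61.5 CPM against 142, 111 and 139 CPM and did not reach 2-fold (log2 −0.93, adjusted p = 0.00441). CDKN1B was at 69.6 CPM ± 9.34 (SD, n = 2) and 70.7 CPM ± 5.21 (SD, n = 3).

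Genes of the interferon response and of antigen presentation were also higher in Hermes 3A cells. Of 46 interferon-stimulated genes, 34 were called higher in Hermes 3A cells and 0 in 501Mel cells (1 without 501Mel replicate 2), with a median log2 difference of −2.79. OAS2, which senses double-stranded RNA, was at 0.809 and 1.02 CPM in 501Mel cells and 62.4, 147 and 172 CPM in Hermes 3A cells (139-fold, adjusted p = 0.000138). MX1, an antiviral GTPase, was at 2.20 and 2.89 CPM against 34.3, 131 and 132 CPM (39.0-fold), and TRIM22 at 1.69 and 2.27 CPM against 50.4, 116 and 113 CPM (47.2-fold). In each of them Hermes 3A replicate 1 was the lowest of the melanocyte libraries and still above both melanoma libraries. The summed level of the list was 684 and 875 CPM in 501Mel cells and 1931, 4075 and 3912 CPM in Hermes 3A cells. Without Hermes 3A replicate 1, 37 of 46 were called. STAT2, which carries the signal to the nucleus, was at 138 and 214 CPM against 210, 365 and 270 CPM and was not called (log2 −0.68, adjusted p = 0.0812). The receptor gene IFNAR1 was also not called, at 34.2 CPM ± 1.75 (SD, n = 2) and 37.5 CPM ± 3.79 (SD, n = 3).

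Of 20 genes of MHC class I presentation, 13 were higher in Hermes 3A cells and 0 in 501Mel cells, with a median of −2.25. B2M, the light chain of every class I molecule, was at 276 and 224 CPM against 1572, 2361 and 2057 CPM (7.99-fold, adjusted p = 0.000184), and the peptide transporter gene TAP1 at 15.2 and 21.6 CPM against 115, 169 and 197 CPM (8.72-fold). HLA-B was at 15.3 and 11.8 CPM against 555, 921 and 876 CPM (57.9-fold). Reads of the HLA genes can be shared between near-identical copies, and allele differences between the lines can change how many align, so these values are uncertain. Of 7 class II presentation genes tested, 2 were higher in Hermes 3A cells (HLA-DPB1 and HLA-DMA) and 1 in 501Mel cells (CD74, which was not called without 501Mel replicate 1), with a median of −0.26 (−1.21 to −0.34 when 1 library was left out).

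The interferon-stimulated response element, through which STAT2 and IRF9 act, was searched for as GAAA followed after any 2 bases by GAAA, on either strand. It stood in the 250 bases before the start of 19 of 35 interferon-stimulated genes with a sequence (54.3%), of 7 of 16 class I genes (43.8%) and of 3.07% of all promoters. The sequences of 3 called genes are shown, with matches in capitals, because each holds more than 1. IFI6, a mitochondrial antiviral protein gene, is at chr1:27672193-27672442 (minus strand), ISG15, a ubiquitin-like modifier gene, at chr1:1013247-1013496 (plus strand) and IFI27 at chr14:94110486-94110735 (plus strand), all in GRCh38.p14.
IFI6: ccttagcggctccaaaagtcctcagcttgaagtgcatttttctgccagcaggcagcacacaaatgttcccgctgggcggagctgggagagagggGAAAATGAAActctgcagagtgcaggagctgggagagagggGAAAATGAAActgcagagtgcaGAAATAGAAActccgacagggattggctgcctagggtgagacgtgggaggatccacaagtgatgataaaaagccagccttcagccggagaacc
ISG15: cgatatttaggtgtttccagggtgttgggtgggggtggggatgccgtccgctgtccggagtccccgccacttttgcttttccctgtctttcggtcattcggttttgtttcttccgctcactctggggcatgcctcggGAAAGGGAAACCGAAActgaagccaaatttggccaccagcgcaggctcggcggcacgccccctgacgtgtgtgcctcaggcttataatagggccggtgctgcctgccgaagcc
IFI27: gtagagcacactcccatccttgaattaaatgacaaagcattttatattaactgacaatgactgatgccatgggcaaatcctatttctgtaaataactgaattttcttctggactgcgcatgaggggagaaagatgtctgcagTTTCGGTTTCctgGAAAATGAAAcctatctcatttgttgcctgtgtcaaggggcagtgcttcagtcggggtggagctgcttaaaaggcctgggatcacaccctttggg
In ISG15 the matches overlap. IFI6 was at 26.8 and 51.9 CPM in 501Mel cells against 607, 1280 and 1078 CPM in Hermes 3A cells. ISG15 was at 3.51 and 4.93 CPM against 25.8, 70.4 and 43.6 CPM. IFI27 was at 0.652 and 0.939 CPM against 5.57, 35.7 and 29.3 CPM. The lines did not overlap in these genes, which differed 25.1-fold, 11.1-fold and 29.6-fold.

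**Figure D2:**
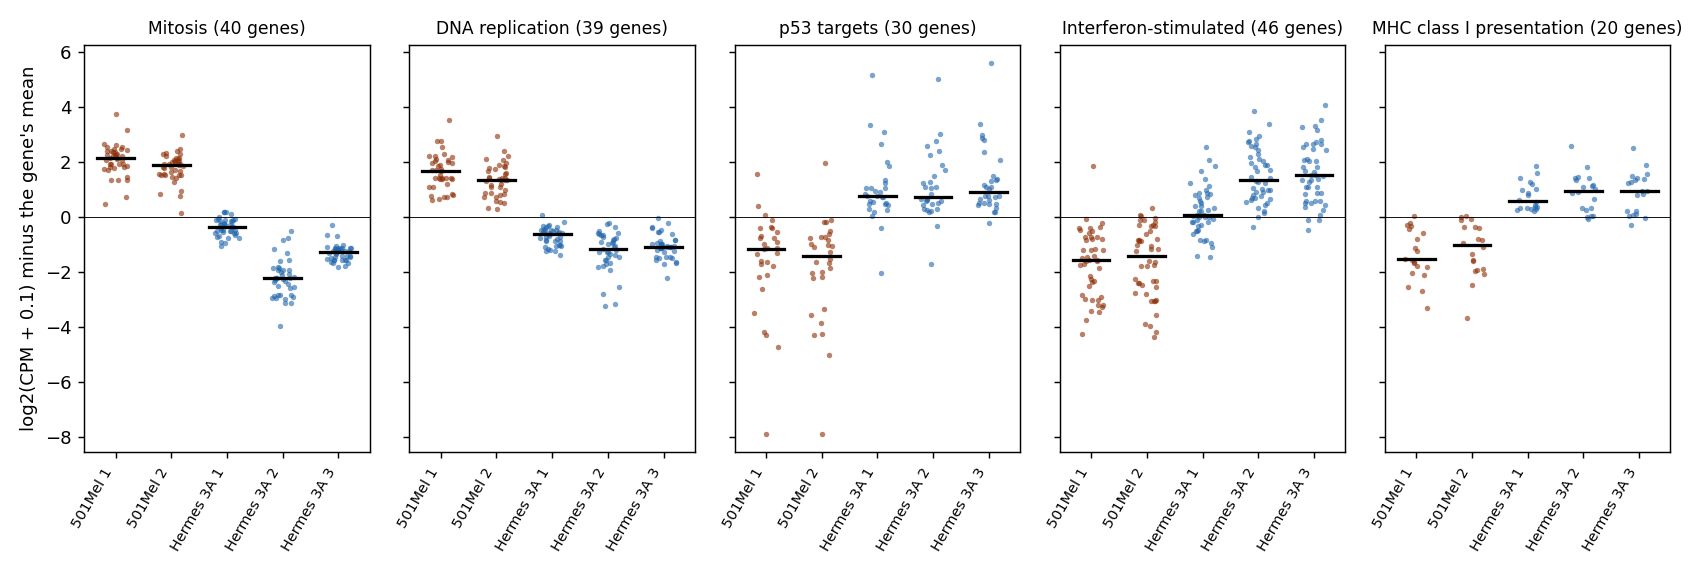
Each point is 1 gene in 1 library, as log2(CPM + 0.1) minus that gene's mean over the 5 libraries, for 5 gene lists, and black bars are medians. The medians of the mitosis genes are 2.15 and 1.88 in 501Mel cells against −0.35, −2.22 and −1.27 in Hermes 3A cells, while those of the interferon-stimulated genes are −1.55 and −1.42 against 0.06, 1.36 and 1.51.

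Pigment cell genes were expressed in both lines. Of 28 genes for pigment enzymes and melanosome proteins, 13 were higher in Hermes 3A cells (7 without 501Mel replicate 1) and 2 in 501Mel cells, with a median log2 difference of −1.01. PMEL, the scaffold of the melanosome, was at 4860 and 8209 CPM in 501Mel cells against 13322, 18511 and 19456 CPM in Hermes 3A cells (2.62-fold, adjusted p = 0.0149, and not called without 501Mel replicate 1 or Hermes 3A replicate 3). OCA2, an anion channel of the melanosome, was at 63.9 and 101 CPM against 694, 689 and 697 CPM (log2 −3.07 ± 0.239 SE, adjusted p = 0.000129). BACE2, the protease that trims PMEL into fibrils, was at 0.405 and 0.913 CPM against 470, 376 and 388 CPM (631-fold, adjusted p = 1.5e-05). MC1R, the receptor for melanocortin, was at 1.64 and 3.21 CPM against 11.3, 15.8 and 13.3 CPM. In the other direction, DCT, the tautomerase of eumelanin synthesis, was at 1034 and 1284 CPM in 501Mel cells and only 7.85, 8.70 and 13.3 CPM in Hermes 3A cells (117-fold, adjusted p = 1.6e-05). SLC45A2, a melanosomal transporter, was at 661 and 1129 CPM against 3.40, 6.94 and 7.52 CPM (151-fold, adjusted p = 4.47e-05).

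Tyrosinase, the rate-limiting enzyme of melanin synthesis, and its relative TYRP1 fell short of a call. TYR was at 384 and 686 CPM in 501Mel cells and 1075, 1012 and 918 CPM in Hermes 3A cells (log2 −0.91 ± 0.262 SE, adjusted p = 0.0248, under 2-fold). TYRP1 was at 4657 and 7322 CPM against 17524, 9890 and 9486 CPM (log2 −1.04 ± 0.384 SE, adjusted p = 0.0587). The lines did not overlap in either gene, as in 69.6% of all genes tested. The M-box, the E-box variant bound by MITF, was searched for as TCATGTG on either strand and stood before the start of 5 of 21 pigment genes with a sequence (23.8%), against 2.58% of all promoters. None of the 5 was a called gene. The sequences of both tyrosinase genes are shown with the M-box in capitals, TYR at chr11:89177625-89177874 and TYRP1 at chr9:12693135-12693384, both on the plus strand of GRCh38.p14.
TYR: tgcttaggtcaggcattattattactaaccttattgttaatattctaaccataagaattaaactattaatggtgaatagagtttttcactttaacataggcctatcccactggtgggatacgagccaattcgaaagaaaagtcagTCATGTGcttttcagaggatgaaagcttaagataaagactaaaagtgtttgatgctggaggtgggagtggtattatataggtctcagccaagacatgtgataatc
TYRP1: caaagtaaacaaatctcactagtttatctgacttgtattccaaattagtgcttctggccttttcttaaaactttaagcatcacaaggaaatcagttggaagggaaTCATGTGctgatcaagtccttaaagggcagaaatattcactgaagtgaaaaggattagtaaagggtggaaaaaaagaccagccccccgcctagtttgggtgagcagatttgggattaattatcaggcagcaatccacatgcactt
The M-box ended 99 bases before the start of TYR and 139 bases before that of TYRP1.

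MITF, the transcription factor above these genes, was at 679 and 843 CPM in 501Mel cells and 684, 663 and 687 CPM in Hermes 3A cells, so that the groups overlapped (log2 0.17 ± 0.163 SE, adjusted p = 0.429). SOX10 was at 309 and 330 CPM against 502, 509 and 521 CPM (log2 −0.68, adjusted p = 0.00681) and PAX3 at 65.9 and 70.8 CPM against 135, 150 and 159 CPM (2.17-fold, adjusted p = 0.000884). FOXD3, a neural crest factor, had 0 and 0 counts against 1325, 1721 and 1735 counts, at least 612-fold higher in Hermes 3A cells. IRF4, which acts on TYR with MITF, was at 35.2 and 20.5 CPM against 96.3, 169 and 154 CPM (5.02-fold). Of 25 melanocyte and neural crest transcription factor genes tested, 5 were higher in 501Mel cells (RXRG, SOX5, ETV5, TFEB and ALX1) and 7 in Hermes 3A cells (11 without 501Mel replicate 1), with a median of −0.68 (−0.37 without 501Mel replicate 2). SOX5 was not called without 501Mel replicate 1, and TFEB was not called without 501Mel replicate 2 or without Hermes 3A replicate 2.

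**Figure D3:**
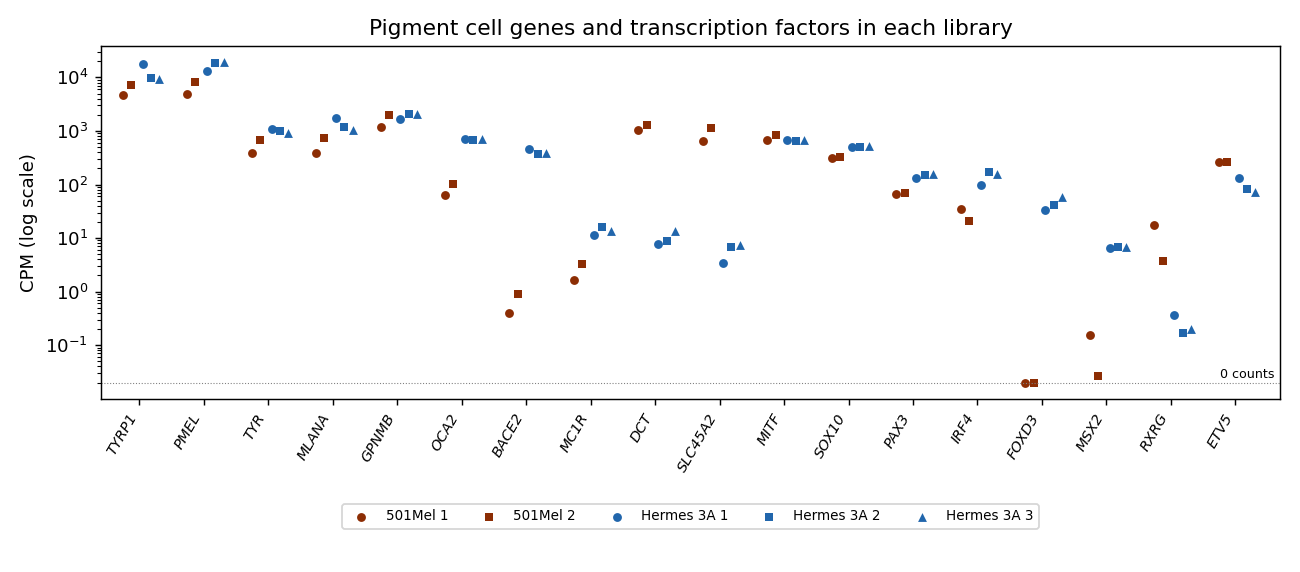
CPM (log axis) of 18 pigment cell genes and transcription factors in each library, with 501Mel in brown and Hermes 3A in blue, and libraries with 0 counts on the dotted line. DCT and SLC45A2 lie far higher in 501Mel cells and BACE2 and FOXD3 far higher in Hermes 3A cells, while the libraries of MITF lie between 663 and 843 CPM.

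Of 38 WNT pathway genes tested, 12 were higher in 501Mel cells against 11 in Hermes 3A cells, with a median of 0.17 (−0.02 without 501Mel replicate 1 and 0.45 without 501Mel replicate 2). Some genes that the β-catenin/TCF complex is known to switch on and that restrain the pathway were higher in 501Mel cells. Inhibitors of the pathway, DKK1 among them, were also found among the genes higher in Hermes 3A cells. AXIN2, a scaffold of the destruction complex, was at 102 and 119 CPM against 5.75, 11.2 and 6.14 CPM (14.3-fold, adjusted p = 0.000141). APCDD1, a membrane inhibitor of WNT ligands, was at 492 and 524 CPM against 5.37, 5.28 and 4.86 CPM (98.2-fold, adjusted p = 4.9e-06). RNF43, a ligase that removes Frizzled receptors, was at 22.3 and 19.7 CPM against 0.741, 0.674 and 0.809 CPM (28.3-fold), and its relative ZNRF3 at 98.1 and 104 CPM against 16.2, 11.4 and 13.2 CPM. NKD1, NKD2, NOTUM, TCF7, LGR4 and DKK2 were also called higher in 501Mel cells, DKK2 at 3.91 and 3.68 CPM against 1.20, 0.458 and 0.337 CPM. The secreted inhibitor DKK1, a relative of DKK2, was at 8.97 and 1.69 CPM in 501Mel cells and 270, 127 and 128 CPM in Hermes 3A cells (32.6-fold, adjusted p = 0.00195), and DKK3 and SFRP1 were higher there too. CTNNB1, the gene of β-catenin, was at 1219 and 1699 CPM against 1769, 1661 and 1716 CPM, and the groups overlapped (log2 −0.23, adjusted p = 0.376).

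**Figure D4:**
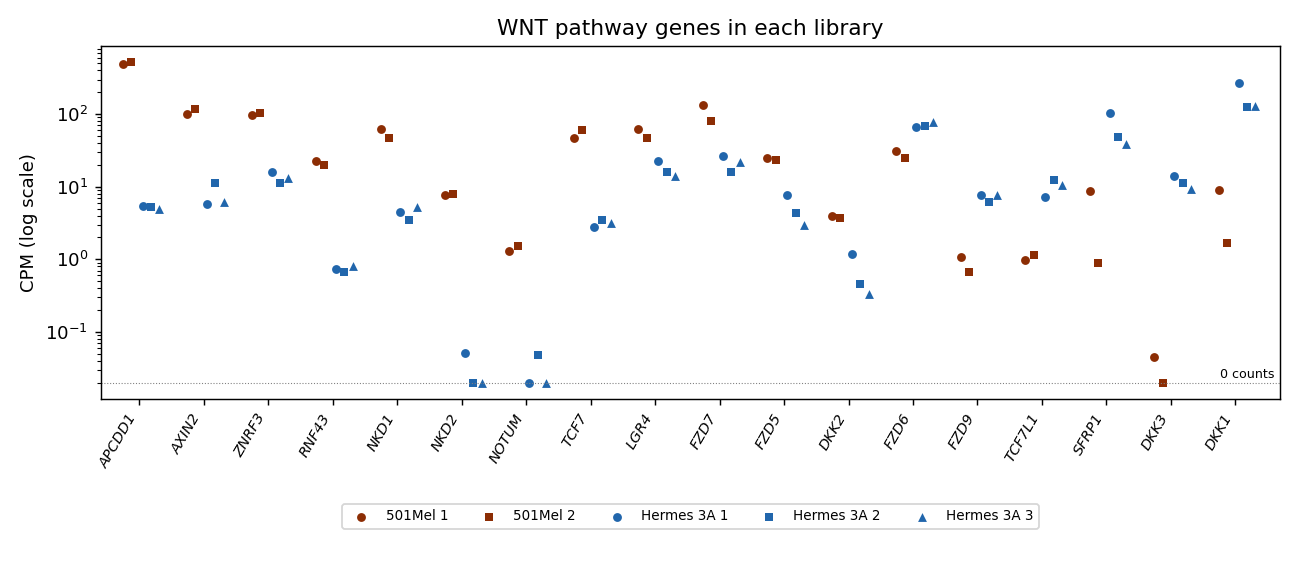
CPM (log axis) of 18 called WNT pathway genes in each library, with 501Mel in brown and Hermes 3A in blue, and libraries with 0 counts on the dotted line. The genes from APCDD1 to DKK2 were higher in 501Mel cells and those from FZD6 to DKK1 in Hermes 3A cells. The lines do not overlap in any of them, but only called genes are shown, and just 7 of all 6157 called genes overlapped.

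Genes of the cell surface and of the matrix were more often higher in Hermes 3A cells than in 501Mel cells. Of 34 collagen genes tested, 16 were higher in Hermes 3A cells and 6 in 501Mel cells (3 without 501Mel replicate 1), with a median of −1.55. COL4A2, a chain of basement membrane collagen, was at 0.652 and 0.339 CPM in 501Mel cells and 961, 512 and 620 CPM in Hermes 3A cells (1379-fold, adjusted p = 2.35e-05). COL11A1, a fibrillar collagen, was at 0.112 and 0.0261 CPM against 273, 191 and 177 CPM. Of 30 integrin and laminin genes, 10 were higher in Hermes 3A cells and 3 in 501Mel cells (median −0.74, −1.16 without 501Mel replicate 1). ITGA5, the fibronectin receptor chain, was at 3.60 and 0.339 CPM against 329, 247 and 248 CPM (137-fold), whereas ITGA9, ITGA11 and LAMC3 were higher in 501Mel cells, ITGA9 with 83.9 and 134 CPM against 2.48, 6.38 and 5.50 CPM. Of 26 matrix proteases and inhibitors, 17 were higher in Hermes 3A cells and 2 in 501Mel cells (4 of 29 without 501Mel replicate 2), with a median of −2.11. TIMP3, an inhibitor of metalloproteases that is held in the matrix, was at 0.427 and 1.67 CPM against 528, 341 and 356 CPM (396-fold). Of 24 cadherins and adhesion genes, 11 were higher in Hermes 3A cells and 5 in 501Mel cells (median −0.93, −1.63 without 501Mel replicate 1 and −0.48 without 501Mel replicate 2). L1CAM, a neural adhesion molecule, was at 6.59 and 0.913 CPM against 386, 776 and 886 CPM (180-fold).

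Of 28 markers of mesenchymal and invasive melanoma states, 10 were higher in Hermes 3A cells and 4 in 501Mel cells, with a median of −0.60 (−1.06 without 501Mel replicate 1, −0.12 without 501Mel replicate 2 and −0.39 without Hermes 3A replicate 1). CD44, the hyaluronan receptor, was at 0.360 and 0.156 CPM in 501Mel cells and 836, 1129 and 1131 CPM in Hermes 3A cells (3864-fold, adjusted p = 9.09e-06). CDH2 (N-cadherin), EGFR and NGFR were higher in Hermes 3A cells by 4.74 (NGFR) to 6.84 (CDH2) on the log2 scale. SNAI1, ZEB1, CCN2 and CAV1 were higher in 501Mel cells. CCN2 was not called without 501Mel replicate 1, and CAV1 was not called without 501Mel replicate 2 or without Hermes 3A replicate 1 or 3. AXL was at 2.95 and 0.183 CPM against 1.07, 0.434 and 0.405 CPM, and the groups overlapped. Of 12 fibroblast markers tested, 6 were higher in Hermes 3A cells and 0 in 501Mel cells (1 without 501Mel replicate 2 or Hermes 3A replicate 1), and their summed level was 8.87 to 33.5 CPM in 501Mel cells and 384 to 463 CPM in Hermes 3A cells. FAP was at 1.93 and 0.678 CPM against 207, 141 and 145 CPM. Of 5 keratinocyte markers tested, FLG, CDH1 and TP63 were higher in Hermes 3A cells and 0 in 501Mel cells (1 of 7 without 501Mel replicate 2), with summed levels of 59.5 to 81.5 CPM and 118 to 142 CPM. Of 3 endothelial and blood cell markers, CLDN5 and CD68 were higher in 501Mel cells and VWF in Hermes 3A cells, but VWF was not called without 501Mel replicate 1 or 2 or without Hermes 3A replicate 2. The part of other cells in these differences was not tested.

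Secreted factors divided between the lines. Of 29 genes of the senescence-associated secretory phenotype (SASP), 12 were higher in Hermes 3A cells and 6 in 501Mel cells (3 of 28 without 501Mel replicate 1), with a median of −0.95 (−1.91 without 501Mel replicate 1 and −0.20 without Hermes 3A replicate 1). IGFBP7 (ENSG00000163453, chromosome 4), a secreted IGF-binding protein, had 0 and 0 counts in 501Mel cells and 9254, 8298 and 8428 counts in Hermes 3A cells, at least 3298-fold higher there. The chemokine CXCL1 was at 0.427 and 0.0261 CPM against 40.6, 17.0 and 16.4 CPM, and the interleukin IL24 at 6.54 and 2.82 CPM against 85.8, 34.3 and 101 CPM. Of 15 genes of the IGF system, 5 were higher in each line (3 in 501Mel cells without 501Mel replicate 1 or without Hermes 3A replicate 2), with a median of 0.22 (0.55 without 501Mel replicate 2). IGFBP2 was at 109 and 121 CPM in 501Mel cells and 0.486, 0.578 and 0.438 CPM in Hermes 3A cells (226-fold, adjusted p = 4.9e-06), whereas IGFBP3 and IGFBP4 had 0 counts in both 501Mel libraries. Of 47 TGF-β and BMP pathway genes, 16 were higher in Hermes 3A cells and 6 in 501Mel cells (median −0.02, −0.58 without 501Mel replicate 1).

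S100A6 (ENSG00000197956, chromosome 1), a calcium-binding protein, had 0 and 0 counts in 501Mel cells and 19049, 21197 and 12012 counts in Hermes 3A cells, at least 6418-fold higher there. Of 9 S100 genes tested, 4 were higher in Hermes 3A cells and 1, S100A4, in 501Mel cells, with a median of −1.43 (−0.45 without 501Mel replicate 2). S100A4 was called only with all 5 libraries or without 501Mel replicate 2.

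Of 40 receptor tyrosine kinase genes, 7 (17.5%) were higher in 501Mel cells against 9 (22.5%) in Hermes 3A cells. The shares of all genes tested were 17.2% and 17.1%. The median of the list was −0.23 (−0.59 without 501Mel replicate 1). The ephrin receptors EPHA3 (129 and 209 CPM against 5.75, 7.42 and 8.74 CPM, 23.2-fold) and EPHA4 (72.4 and 125 CPM against 4.73, 5.68 and 4.38 CPM, log2 difference 4.32) were higher in 501Mel cells. ERBB2 was higher in Hermes 3A cells, with 7.11 and 6.34 CPM against 120, 115 and 123 CPM (17.7-fold, adjusted p = 1.18e-05). KIT, the receptor for the stem cell factor in the Hermes 3A medium, was at 385 and 384 CPM against 522, 383 and 486 CPM and was not called. Of 25 MAPK output genes, 6 were higher in Hermes 3A cells (10 without Hermes 3A replicate 2) and 3 in 501Mel cells (6 without Hermes 3A replicate 1), with a median of −0.53 (−1.07 without 501Mel replicate 1). CCND1, cyclin D1, was at 317 and 388 CPM against 2068, 1031 and 1210 CPM (4.08-fold). Of 12 protein kinase C genes, the direct targets of phorbol esters and their relatives, 2 were higher in each line (1 in 501Mel cells without Hermes 3A replicate 1), with a median of −0.27 (−0.60 without 501Mel replicate 1). PRKCA was at 8.25 and 14.3 CPM against 55.5, 50.5 and 51.4 CPM. Of 15 cAMP and CREB targets, 5 were higher in each line (median 0.01), with PPARGC1A at 59.9 and 92.3 CPM against 10.1, 7.06 and 8.30 CPM and NR4A1 at 60.4 and 32.2 CPM against 325, 179 and 206 CPM. Of 8 genes of melanocortin, endothelin and KIT signalling, EDNRB was higher in 501Mel cells and EDNRA and MC1R in Hermes 3A cells (median 0.03), and 2 were higher in 501Mel cells without Hermes 3A replicate 1. Of 23 NOTCH pathway genes, 8 were higher in 501Mel cells (5 without 501Mel replicate 1) and 4 in Hermes 3A cells (7 without Hermes 3A replicate 1), with a median of −0.29 (0.08 without 501Mel replicate 2 and −0.05 without Hermes 3A replicate 3). The NOTCH target HEY2 was at 43.3 and 54.1 CPM against 1.10, 0.313 and 0.202 CPM (88.0-fold), and HES4 at 0.315 and 1.02 CPM against 12.4, 12.9 and 16.2 CPM.

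HOX genes, which record position along the body axis, were mostly higher in Hermes 3A cells. Of 37 tested, 20 were higher there and 3 (HOXA3, HOXA5 and HOXA13) in 501Mel cells, with a median of −1.55. HOXB13 was at 3.28 and 2.63 CPM against 88.4, 93.1 and 128 CPM (34.7-fold), and HOXC10 at 2.43 and 0.704 CPM against 57.9, 51.6 and 50.1 CPM. Of 30 neuronal and secretory-granule genes, 9 were higher in Hermes 3A cells and 4 in 501Mel cells (1 without 501Mel replicate 1), with a median of −0.56 (−1.0 without 501Mel replicate 1). PCSK1, a prohormone convertase, was at 0.225 and 0.156 CPM against 144, 66.1 and 66.0 CPM.

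Of 7 cancer-testis antigen genes tested, 6 were higher in 501Mel cells against 0 in Hermes 3A cells. CSAG1 had 1859 and 1837 counts in 501Mel cells and 0, 0 and 0 counts in Hermes 3A cells, at least 538-fold higher, and MAGEA10 was at 22.1 and 9.36 CPM against 0.102, 0.169 and 0.202 CPM. The median log2 difference of the list was 4.06 with the 4 members that had 0 counts in every Hermes 3A library set to 3 counts there, against 8.73 as fitted. Some members of these families are near-identical and their reads can be shared. Another 18 genes of this list were listed for 501Mel cells only and were not tested. Of 26 genes of the BCL2 and IAP families, 6 were higher in Hermes 3A cells and 2 in 501Mel cells (median −0.36). The latter were BIRC5, also a mitosis gene, and BIRC7, an inhibitor of apoptosis in melanoma, at 47.1 and 31.9 CPM against 0.179, 0.337 and 0.641 CPM (105-fold). BCL2A1, a survival gene controlled by MITF, was at 3.42 and 11.4 CPM against 50.2, 54.3 and 60.3 CPM (7.41-fold).

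BPTF, the gene silenced in both lines, was at 63.7 and 57.1 CPM in 501Mel cells and 48.7, 50.8 and 54.9 CPM in Hermes 3A cells (log2 0.23 ± 0.139 SE, adjusted p = 0.208). The lines did not overlap in these levels, as in 69.6% of all genes tested. These levels do not check the knockdown, since both lines carry it. Of 14 NURF and ISWI complex genes, 5 were higher in 501Mel cells (3 without 501Mel replicate 1) and 0 in Hermes 3A cells (1 without 501Mel replicate 2), with a median of 0.74. The ATPase genes SMARCA5 (216 and 204 CPM against 151, 129 and 123 CPM) and SMARCA1 (21.9 and 37.6 CPM against 55.0, 41.5 and 52.2 CPM) were not called. The histone-binding subunit RBBP7 was higher in 501Mel cells, at 306 and 356 CPM against 128, 106 and 90.5 CPM (3.06-fold, adjusted p = 0.000508), as was POLE3, a partner of SMARCA5 (3.25-fold).

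Of 47 lysosome genes, which encode the enzymes of the degradative compartment, 21 were higher in Hermes 3A cells and 3 in 501Mel cells, with a median of −0.86. CTSK, a collagen-degrading cathepsin, was at 3.42 and 8.47 CPM against 763, 1147 and 1068 CPM (168-fold, adjusted p = 7.97e-05), and CTSD at 143 and 235 CPM against 1634, 1392 and 1472 CPM (7.93-fold). Of 37 glycolysis and hypoxia genes, 11 were higher in Hermes 3A cells and 3 in 501Mel cells (median −0.43), with the glucose transporter SLC2A1 at 414 and 496 CPM against 66.7, 39.9 and 32.9 CPM (9.79-fold). Of 66 nuclear genes of the respiratory chain, 5 were higher in Hermes 3A cells (9 without 501Mel replicate 2) and 1, NDUFV2, in 501Mel cells (median −0.32). Of 13 mitochondrial genome transcripts, 6 were higher in 501Mel cells against 0 in Hermes 3A cells, with a median of 0.87. This count was 3 without 501Mel replicate 2 and 2 without Hermes 3A replicate 3. Of 74 cytosolic ribosomal protein genes tested, 2 were higher in each line, with a median of 0.00 (4 in 501Mel cells without Hermes 3A replicate 1, and 1 in Hermes 3A cells without 501Mel replicate 2).

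Some genes were read in one line and hardly at all in the other. With at most 3 counts in each library of one line and at least 100 in each library of the other, 133 genes were near 0 in 501Mel cells (120 protein-coding) and 69 in Hermes 3A cells (43 protein-coding). Among those near 0 in 501Mel cells, CAVIN1, needed to form caveolae, had 0 and 1 counts against 8989, 8125 and 5439 counts, and the transcription factor gene MSC (ENSG00000178860, chromosome 8) 0 and 0 counts against 4639, 4901 and 4186 counts (at least 1729-fold). UCHL1, a deubiquitinase, had 0 and 0 counts against 7088, 2454 and 1976 counts, so that replicate 1 was well above the other Hermes 3A libraries. The leukotriene receptor gene CYSLTR2, the protocadherin gene PCDHGC3 and CAVIN3 were, like CDKN1A, S100A6 and IGFBP7, also among the 10 with the highest mean CPM in Hermes 3A cells. In the other direction, MS4A15 (ENSG00000166961, chromosome 11) had 2977 and 5899 counts in 501Mel cells against 0, 0 and 0 in Hermes 3A cells, at least 1324-fold higher. The adrenergic receptor gene ADRA2C had 1806 and 2820 counts against 1, 1 and 0 counts, and TDO2, which degrades tryptophan, 3678 and 670 counts against 3, 0 and 0 counts. The long non-coding RNA LINC02223 had 1636 and 5136 counts against 0, 2 and 0 counts.

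A gene can lose all its reads where it overlaps another gene in the annotation used for counting. In GENCODE 29, 60 of the 120 protein-coding genes near 0 in 501Mel cells and 25 of the 43 near 0 in Hermes 3A cells (58.1%) overlapped another gene, against 69.8% of the 13868 protein-coding genes tested. On the same strand the shares were 19.2%, 30.2% and 33.6%. Among the genes with 0 counts in both 501Mel libraries named above, CDKN1A, S100A6, IGFBP7, MSC, UCHL1 and FOXD3 each overlap another gene. IGFBP3 and IGFBP4, also at 0 counts there, overlap none. Of the further genes with 0 counts there that are named below, CPXM2 and PDLIM4 overlap another gene. CHST3, FXYD5, TMEM185B, PPP1R3C and THNSL2 overlap none. The annotation that was used for counting is not given in the sources used here, and its part in the counts of 0 of these genes was not tested, so that absent transcripts and uncounted reads cannot be told apart.

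The protein-coding genes with the largest called differences and at least 10 CPM included several of those above. Higher in 501Mel cells were further NAA11, PIP5K1B, GTSF1, NLGN4X, RNASE1, PNLDC1, ZIC5, CPXM1, ACTL8 and PLCB1. BAAT, a bile acid conjugating enzyme of the liver, was at 236 and 410 CPM against 0.153, 0.217 and 0.0675 CPM (2067-fold, adjusted p = 9.93e-06). ACTL8 rested on 1 library, with 87.0 and 2.06 CPM against 0.102, 0 and 0 CPM. Higher in Hermes 3A cells were further CHST3, FXYD5, CPXM2, PDLIM4, TMEM185B, PPP1R3C and THNSL2, all with 0 counts in both 501Mel libraries. Among long non-coding genes, LINC02223, MIR3667HG, LINC02600, OVAAL and PYDC2-AS1 led those higher in 501Mel cells. FLG-AS1, MAGI2-AS3, CNIH3-AS1, MSC-AS1 and LINC02735 led those higher in Hermes 3A cells. The counting is not stated to use strand, so that an antisense gene and its partner cannot be told apart.

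By gene type, the shares were uneven. Of 13868 protein-coding genes, 14.7% were higher in 501Mel cells against 18.8% in Hermes 3A cells (median −0.07). For 1966 long non-coding genes the shares were 19.3% and 13% (median 0.30), and for 1433 pseudogenes 37.3% and 8.65% (median 0.98). Pseudogene reads depend on how reads with several matches are placed, and the part of this in the difference was not tested. By chromosome, the median log2 difference ranged from −0.46 on chromosome 19 to 0.36 on chromosome 20 among the nuclear chromosomes analysed. On chromosome 19, 8.24% of 1068 genes were higher in 501Mel cells against 26.2% in Hermes 3A cells.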

How the data were processed

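RNA was measured in 5 libraries, 2 of 501Mel shBPTF and 3 of Hermes 3A shBPTF cells, from total RNA depleted of ribosomal RNA and normalised with duplex-specific nuclease, which lowers abundant molecules and whose part in the values was not tested. The authors deposited raw counts of reads per Ensembl gene, 1 file per library. The submitters' processing notes name CASAVA 1.8, TopHat 1.4.1, Bowtie 0.12.7 and hg19, and the counting program and its annotation are not given in the sources used here. Gene types and chromosomes were taken from GENCODE 29 (GRCh38). Gene names were taken from a reference list of current symbols and, where it gave none, from GENCODE 29. The files hold no fold changes or p-values of the authors and no columns of other samples.

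Counts of the shared genes were filtered with filterByExpr, scaled by TMM and tested with edgeR's quasi-likelihood test (edgeR 4.0.16, limma 3.58.1, R 4.3.3), fitted over all genes, and p-values were adjusted by the Benjamini-Hochberg method. All adjusted p-values in the text come from this fit. SE is the log2 difference divided by the square root of F. The scripts were tested on simulated data. Folds against libraries at 0 were computed with 3 counts per library in place of 0. They are lower bounds for counted reads, and for transcript levels only if the gene's reads were counted. Named were the 15 protein-coding and 5 long non-coding genes with the largest called differences in each direction and at least 10 CPM in one line, the 10 highest near-0 genes, 5 marker genes, and members of the gene lists, except a few genes that are not reported here. The marker genes, the lists and the list members given with values were chosen with earlier results of these data known. A list is described by its counts and median with no test. Alternatives were other scalings and filters, DESeq2 (version 1.42.0), a test against a 2-fold change, leaving out each library, and the replicate number as a block. Leaving out the mitochondrial genome transcripts was added after seeing the data.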

Additional observations from a re-analysis of the deposited data

Results flagged for a closer look

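Genes listed in the files of one line only were in no comparison, and some of them carried a clear signal. In 501Mel cells 67 such genes, and in Hermes 3A cells 48, had at least 100 counts in every library. The highest protein-coding genes in 501Mel cells were the cancer-testis antigen genes PRAME (mean 637 CPM), MAGEA4 (407 CPM), MAGEB2 (164 CPM), MAGEA12 (160 CPM) and MAGEA3 (128 CPM). Some MAGE genes have near-identical copies that can share reads. The highest protein-coding genes in Hermes 3A cells were THBD (96.5 CPM), DYNLL2 (20.8 CPM), FLI1 (18.9 CPM), RPL17 (17.4 CPM) and TSPYL5 (15.4 CPM). Unlike the CPM above, those of these genes listed for one line were scaled to each library's total counts without TMM adjustment. RPL17 encodes a ribosomal protein that every cell uses, so that its absence from the 501Mel list is no measure of its expression there. Ensembl numbers reach 263345 in the 501Mel files and 267801 in the Hermes 3A files. Those of RPL17 and DYNLL2 lie above the 501Mel limit, and those of THBD, FLI1 and TSPYL5 below it. Why genes are missing was not tested, and their absence is not read as a measure of expression.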

How the results depend on the processing

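The counts of called genes stayed within 1.5 times the reported 3089 and 3068 with DESeq2 size factors (3052 and 3121, higher in 501Mel and in Hermes 3A cells), total counts as scaling (3284 and 2860), no filter (3403 and 3386), DESeq2 (3079 and 3326) and no mitochondrial genome transcripts (3099 and 3067, added after seeing the data). They moved further with at least 10 counts in every library (1977 and 1898) and with the test against a 2-fold change (1788 and 1909). Leaving out 1 library gave 2233 to 3182 and 2633 to 3301. The log2 difference of COL27A1, 0.43 and not called, ranged from −4.09 (called, without 501Mel replicate 1) to 1.38 when 1 library was left out. With the limit for near-0 genes at 0 counts, 22 and 43 genes were higher in 501Mel and in Hermes 3A cells, and at 10 counts 122 and 234. The causes were not tested. With the replicate block 2730 and 2902 genes were called. Similar totals can hold different genes. Of the reported calls, 87.3% recurred in the same direction with the block. The share was 83.8% to 93.7% when 1 Hermes 3A library was left out. It was 60.2% with at least 10 counts in every library, a setting that also tests fewer genes. Deviations of same-numbered libraries correlated at 0.105 and 0.121, and with only 2 pairs the numbers only name samples.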
